A study of Homo sapiens with 12 samples.

Results

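The secreted interleukins and CXC chemokines described here are CXCL8 (interleukin-8), CXCL1, CXCL2 and IL6, measured by 5 named probes of an Illumina HT-12 expression array in WM35, an established human melanoma cell line. The members are set by probe identifier and gene, with no threshold on their values, in a list drawn up with earlier results of these data known: ILMN_2184373 and ILMN_1666733 for CXCL8, ILMN_1787897 for CXCL1, ILMN_1682636 for CXCL2 and ILMN_1699651 for IL6. They are 5 of the 47230 probes in the table of scanner signals. Of the 5, the 2 CXCL8 probes and the CXCL1 probe were detected on all 12 arrays (deposited detection p of 0 on each). The CXCL2 and IL6 probes had a detection p of 0.01 or more on every array and are marked below as not detected.

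The 12 arrays held ciclopirox for 8 h (3 arrays), ciclopirox for 24 h (2), crizotinib for 8 h (3), crizotinib for 24 h (2) and control (2). All cells were WM35 in medium with 5% fetal bovine serum. Ciclopirox is an antifungal agent that binds iron, and crizotinib inhibits receptor tyrosine kinases such as MET and ALK. Each drug was used at its 75% inhibitory concentration, determined at 72 h, and the control received the vehicle DMSO. The control titles carry no time, so the same 2 controls served both times and both drugs, and all comparisons with control share them. All groups are of 1 cell line. The labels do not state separate cultures for the replicates, so each p-value reflects only how far these arrays differ, and that may be technical variation.

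CXCL8, CXCL1 and CXCL2 are small secreted proteins that attract neutrophils. CXCL8 acts through the receptors CXCR1 and CXCR2, and CXCL1 and CXCL2 act through CXCR2. CXCL1 was first isolated from melanoma cell cultures as a growth-stimulating activity. IL-6 binds IL6R, and the complex signals through IL6ST (gp130), JAK kinases and STAT3. Transcription of all 4 genes is known to be switched on by NF-kB, often together with AP-1 and C/EBP factors, and their mRNAs are short-lived because AU-rich elements recruit decay factors such as ZFP36.

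The stretch of 250 bases just before the start of each gene is shown because these promoters carry the short motifs through which that control is exerted. Sequences are from RefSeq on GRCh38.p14, 5′ to 3′ on the strand of the gene, and all 4 genes matched. CXCL8 lies on the plus strand (chr4:73740319-73740568), CXCL1 on the plus strand (chr4:73869143-73869392), CXCL2 on the minus strand (chr4:74099196-74099445) and IL6 on the plus strand (chr7:22726950-22727199). Capitals mark matches, on either strand, to the NF-kB-like motif GGNNTTTCC, the AP-1 motif TGANTCA and the TATA motif TATAAA; no marked matches overlap.
CXCL8: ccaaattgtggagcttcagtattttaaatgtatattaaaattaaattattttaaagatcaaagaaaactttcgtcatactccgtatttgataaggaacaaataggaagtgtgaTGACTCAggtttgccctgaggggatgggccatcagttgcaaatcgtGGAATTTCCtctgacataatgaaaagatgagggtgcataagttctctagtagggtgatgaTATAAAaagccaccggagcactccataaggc
CXCL1: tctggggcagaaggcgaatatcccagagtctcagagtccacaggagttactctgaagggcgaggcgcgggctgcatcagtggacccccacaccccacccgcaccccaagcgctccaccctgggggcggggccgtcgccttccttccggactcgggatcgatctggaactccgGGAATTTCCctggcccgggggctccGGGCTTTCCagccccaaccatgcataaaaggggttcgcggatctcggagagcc
CXCL2: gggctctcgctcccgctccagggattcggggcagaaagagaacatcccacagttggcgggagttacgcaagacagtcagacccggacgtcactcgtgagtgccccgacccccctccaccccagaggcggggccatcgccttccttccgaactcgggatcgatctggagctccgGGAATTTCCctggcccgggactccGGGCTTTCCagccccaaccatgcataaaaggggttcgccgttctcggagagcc
IL6: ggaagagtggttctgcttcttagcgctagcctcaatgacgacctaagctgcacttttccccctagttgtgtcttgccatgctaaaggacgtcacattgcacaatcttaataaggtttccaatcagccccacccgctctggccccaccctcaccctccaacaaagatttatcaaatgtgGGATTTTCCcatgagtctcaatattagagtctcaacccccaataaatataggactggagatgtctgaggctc
The NF-kB-like motif was found once in CXCL8, beginning 91 bases before the start, and once in IL6, beginning 72 bases before it. CXCL1 had 2 matches (78 and 53 bases before the start) and CXCL2 had 2 (77 and 53 bases before it). Among 35116 promoters of the same length, 5.48% held this motif. The motif was picked with these promoters in mind, so its presence in all 4 is a description. The AP-1 letters were found only in CXCL8 among the 4, 137 bases before the start (6.57% of all promoters), as were the TATA letters, 31 bases before it (10.7%). The longest identical stretch was 42 bases between CXCL1 and CXCL2, and between 6 and 10 bases for each other pair. Whether the CXCL1 and CXCL2 probes also bind transcripts of close relatives was not tested, since no probe sequences were used here.

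The 2 deposited tables place the arrays in different groups, which touches every result below. In the table of scanner signals each column is an array of 1 BeadChip with positions A to L, which the array descriptions tie to the samples. In the second table, of the authors' processed values (called the value table here), each column belongs to a sample. Over 12599 probes centred on their means, each scanner array matched 1 value-table column with r between 0.949 and 0.987, and its next best column with r between 0.353 and 0.680. Only the 2 control samples had the same array in both tables. For the 10 drug samples, r between a column and the array of its own description lay between -0.63 and 0.57.

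By the array descriptions, ciclopirox 8 h was C, D and E, ciclopirox 24 h was F and G, crizotinib 8 h was H, I and J, crizotinib 24 h was K and L, and control was A and B. The value table instead made ciclopirox 8 h J, K and L, ciclopirox 24 h E and F, crizotinib 8 h G, H and I, crizotinib 24 h C and D, and control again A and B. Arrays A, B, F, H and I carry the same group in both (5 arrays), and the other 7 do not. The second labelling was added after the data were seen. Every result is therefore given first by the array descriptions and then by the value table, and the sources used here do not state which tie is right.

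**Figure D1:**
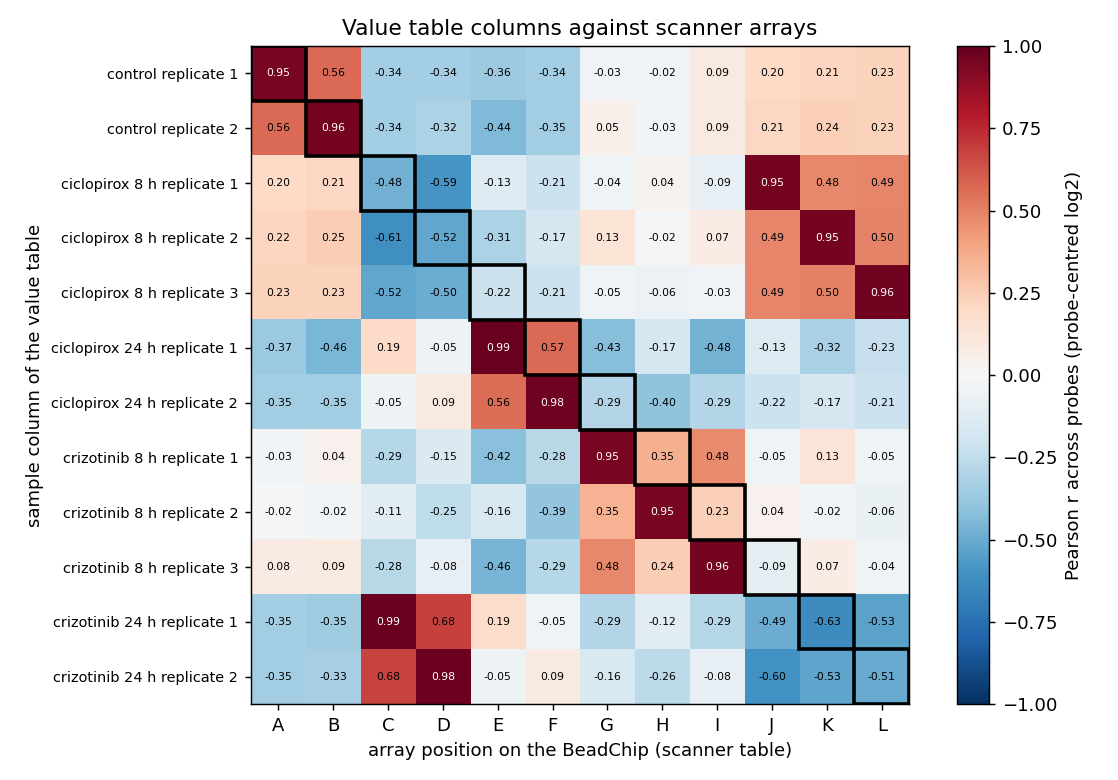
Pearson correlation across 12599 probe-centred log2 values between each sample's column of the value table (rows) and each scanner array by its position (columns), with black boxes at the array that the description gives. The control rows peak inside their boxes at 0.95 and 0.96, and all 10 drug rows peak outside theirs.

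Likeness between arrays also differed between the labellings. With the labels of the array descriptions, the mean centred correlation was 0.15 between arrays of the same label (9 pairs) and -0.12 between arrays of different labels (57 pairs), and 5 of 12 arrays were closest to one of their own label. With the labels of the value table, the means were 0.37 and -0.15, and 12 of 12 arrays were closest to their own label. Iron binding agents are known to induce hypoxia-response genes such as VEGFA, which was looked at after its values were seen. VEGFA log2 levels ran from 6.48 to 8.79 on the 5 arrays described as ciclopirox and from 7.06 to 8.02 on the other 7, whereas by the value table they ran from 7.75 to 8.79 on the 5 ciclopirox arrays and from 6.48 to 7.34 on the other 7. Both labellings put groups on neighbouring positions of the BeadChip, so group and position cannot be told apart. Mean intensity per array ranged from 346 to 398, and 15561 to 17106 probes were detected per array.

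Of the melanocyte markers, SOX10 was well measured (log2 11.00 to 11.65) and MITF was low (5.33 to 5.87), whereas TYR, TYRP1, MLANA, PMEL, S100B and GPR143 did not pass the detection filter. In bulk RNA, fewer cells making a transcript and less transcript per cell cannot be told apart.

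CXCL8 lay below control on most drug arrays, in both of its probes. Levels are log2 of the background-corrected, quantile-normalized intensity with an offset of 16, and differences on this scale understate changes of dim probes. In the labelling of the array descriptions, ILMN_2184373 stood at 11.88, 11.49 and 12.06 for ciclopirox 8 h, 11.80 and 10.85 for ciclopirox 24 h, 11.17, 11.22 and 12.61 for crizotinib 8 h, and 12.18 and 12.37 for crizotinib 24 h, against 12.47 and 12.56 in control. The arrays at positions C to I were all below both controls, array J was above both, and K and L were just below. Arrays labelled alike were far apart in this ordering: crizotinib 8 h spanned 11.17 to 12.61. In the value table's labelling, the same arrays gave 12.61, 12.18 and 12.37 for ciclopirox 8 h, 12.06 and 11.80 for ciclopirox 24 h, 10.85, 11.17 and 11.22 for crizotinib 8 h, and 11.88 and 11.49 for crizotinib 24 h, with control unchanged. In this labelling 3 drug groups lay wholly below control, and ciclopirox 8 h overlapped it.

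The second CXCL8 probe, ILMN_1666733, ran the same way. Its levels by the array descriptions were 9.97, 9.27 and 9.47 for ciclopirox 8 h, 9.38 and 8.79 for ciclopirox 24 h, 9.07, 8.82 and 10.72 for crizotinib 8 h, and 10.31 and 10.46 for crizotinib 24 h, against 10.55 and 10.81 in control. By the value table, they were 10.72, 10.31 and 10.46 for ciclopirox 8 h, 9.47 and 9.38 for ciclopirox 24 h, 8.79, 9.07 and 8.82 for crizotinib 8 h, and 9.97 and 9.27 for crizotinib 24 h, against the same controls. Again arrays C to I were below both controls, J was within the control range, and K and L were just below it.

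CXCL1 was also below control on arrays C to I, but in another order. Labelled by the array descriptions, ILMN_1787897 stood at 8.11, 8.09 and 8.05 for ciclopirox 8 h, 8.87 and 8.46 for ciclopirox 24 h, 8.70, 8.47 and 9.70 for crizotinib 8 h, and 9.58 and 9.49 for crizotinib 24 h, against 9.34 and 9.50 in control. Labelled by the value table, it stood at 9.70, 9.58 and 9.49 for ciclopirox 8 h, 8.05 and 8.87 for ciclopirox 24 h, 8.46, 8.70 and 8.47 for crizotinib 8 h, and 8.11 and 8.09 for crizotinib 24 h, against the same controls. CXCL1 was lowest on C, D and E, whereas both CXCL8 probes were lowest on G, H and I.

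**Figure D2:**
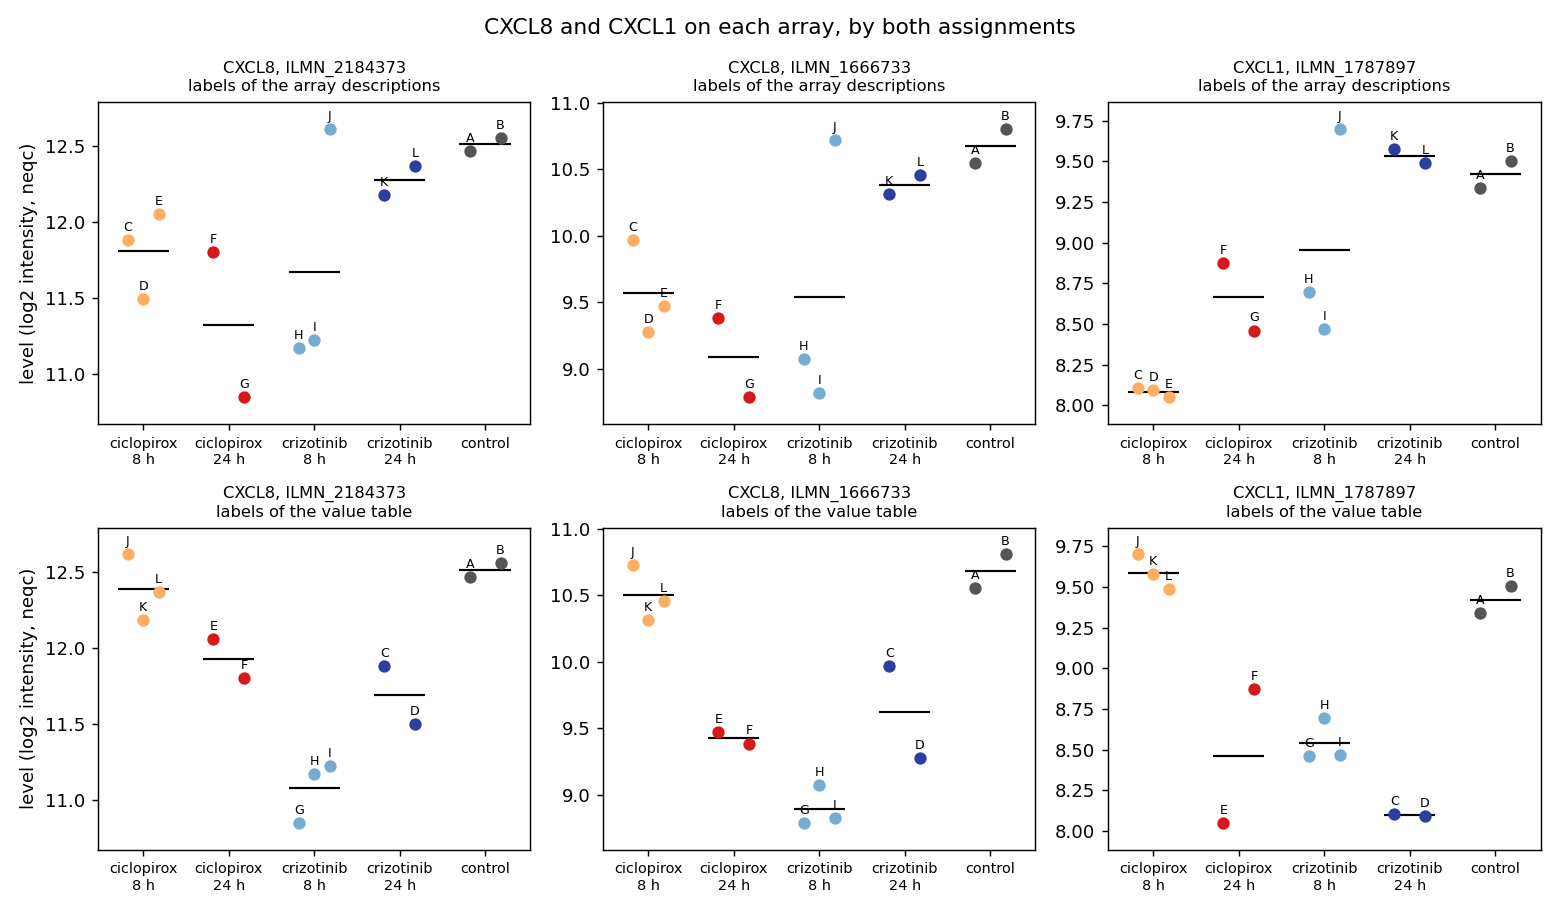
Log2 level of the 3 detected probes on each array (points, lettered by BeadChip position) with group means (lines), grouped by the array descriptions in the upper row and by the value table in the lower row. Arrays C to I lie below both control arrays for each probe, and the groups they make up change between the rows.

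Differences from control were tested with limma on 18285 probes detected on at least 2 arrays, and a probe is called changed where the Benjamini-Hochberg adjusted p is below 0.05. By the array descriptions, CXCL1 fell at ciclopirox 8 h, to a mean of 8.08 ± 0.03 (SD, n = 3) against 9.42 ± 0.12 in control (SD, n = 2), which is -1.34 on the log2 scale (SE 0.28, adjusted p = 0.0372 in limma). It was the 1 member called of the 3 tested, and 2.84% of all probes were called in this comparison. The call was lost when array A, B, C, D, H, K or L was left out (adjusted p up to 0.26) and without the detection filter (adjusted p = 0.0731), and 2 members were called without array J. The CXCL8 probes gave -0.70 (SE 0.39, adjusted p = 0.320) and -1.11 (SE 0.45, adjusted p = 0.175) there. With the replicate number as a block, in a fit to only these groups, all 3 probes were called. That fit left few residual degrees of freedom, and the numbers did not pair ciclopirox 8 h with control (r -0.03 to 0.05).

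None of the 3 tested members was called against control in the other drug groups by the array descriptions (0 in each). At ciclopirox 24 h the differences were -1.19 (adjusted p = 0.447) and -1.59 (adjusted p = 0.386) for CXCL8 and -0.75 (adjusted p = 0.485) for CXCL1 by limma, and 0.00547% of all probes were called. At crizotinib 8 h they were -0.84, -1.14 and -0.47 (adjusted p of 0.877 or more), with 0% of probes called and 1015 at an unadjusted p below 0.05. At crizotinib 24 h they were -0.24, -0.29 and 0.11 (adjusted p = 0.991 each), with 0% called and 1076 at an unadjusted p below 0.05. The large SD of crizotinib 8 h, 0.82 for ILMN_2184373 and 1.03 for ILMN_1666733 (n = 3), came with array J, which lay near control, beside H and I.

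With the value table's labels, both chemokines had lower means than control in 3 of the 4 drug groups, and 7 of these 9 probe differences were called. The lowest CXCL8 means were those of crizotinib 8 h, where ILMN_2184373 averaged 11.08 ± 0.20 (SD, n = 3) against 12.51 ± 0.06 in control (SD, n = 2), or 2.70-fold lower (log2 difference -1.43, SE 0.17, adjusted p = 0.00213 in limma). ILMN_1666733 fell by 1.78 there (SE 0.19, adjusted p = 0.0014), or 3.44-fold lower. CXCL1 gave -0.88 with a limma adjusted p of 0.0518, so 2 of 3 members were called, where 1.53% of all probes were. With the replicate number as a block, in a fit to only these groups, 0 of the 3 were called in this comparison.

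At crizotinib 24 h by the value table, all 3 probes fell. The CXCL8 differences were -0.82 (SE 0.18, adjusted p = 0.0101) and -1.06 (SE 0.21, adjusted p = 0.00596), and the CXCL1 difference was -1.32 (SE 0.21, adjusted p = 0.00174), all by limma. In this comparison 18.9% of all probes were called, and 1 member was called when array B was left out and 2 without array D. At ciclopirox 24 h, ILMN_1666733 fell by 1.25 (SE 0.21, adjusted p = 0.00348) and CXCL1 by 0.96 (SE 0.21, adjusted p = 0.013), while ILMN_2184373 gave -0.58 (adjusted p = 0.0553). Thus 2 of 3 members were called among 14.6% of all probes, and the CXCL1 call was lost without array A, B or E, while ILMN_2184373 was also called without C, D or G. At ciclopirox 8 h the differences were -0.12, -0.18 and 0.17 (adjusted p of 0.757 or more), with 0 of 3 members called and 0.536% of all probes. The 95% intervals there were -0.49 to 0.24 and -0.61 to 0.25 for CXCL8 and -0.26 to 0.59 for CXCL1.

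**Figure D3:**
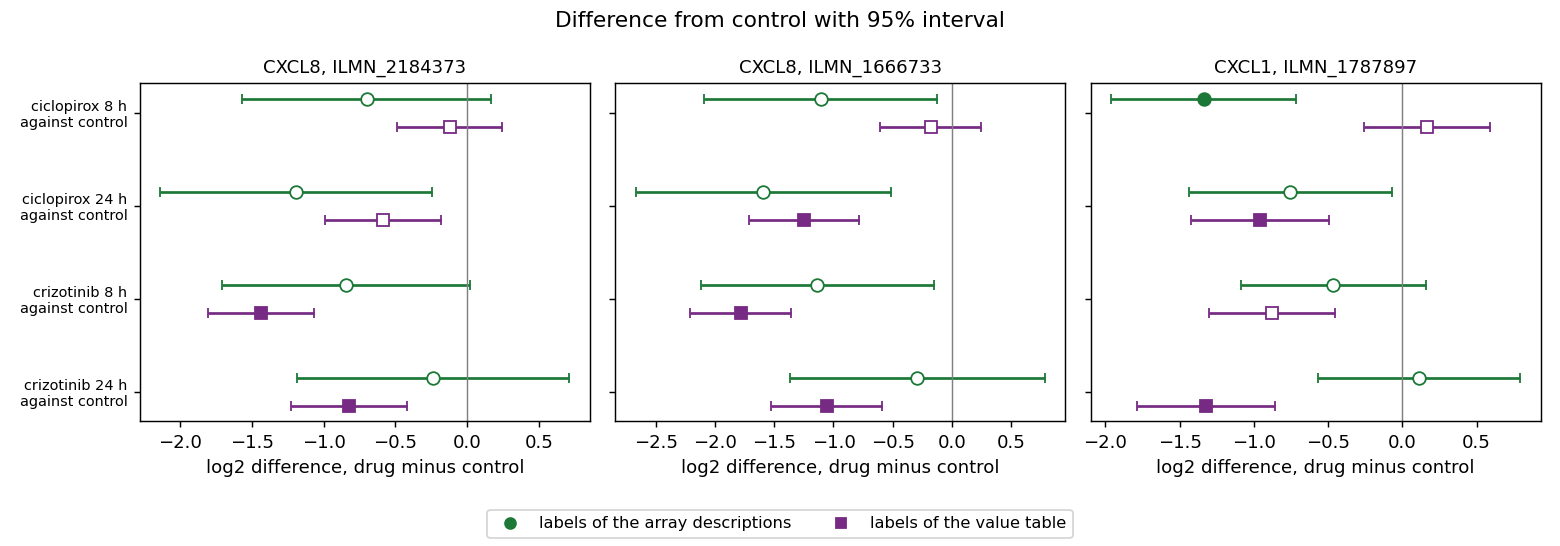
Log2 difference of each drug group from control with its 95% interval (limma), by the array descriptions (green circles) and by the value table (purple squares), with filled symbols where the adjusted p is below 0.05. CXCL1 is the only filled green circle, and 7 purple squares at 24 h or crizotinib are filled.

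Arrays whose group is the same in both tables allowed a fit without that conflict, on A, B, F, H and I (2 residual degrees of freedom). The lone ciclopirox 24 h array, assumed to vary like the others, differed from control by -0.71 (adjusted p = 0.0621) and -1.29 (adjusted p = 0.0422) for CXCL8 and by -0.55 (adjusted p = 0.133) for CXCL1. Here 1 of 3 members was called, beside 1.94% of all probes. The 2 crizotinib 8 h arrays differed by -1.32 and -1.73 for CXCL8 (adjusted p = 0.0868 each) and by -0.84 for CXCL1 (adjusted p = 0.16), with 0 members and 0% of all probes called by limma.

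The 2 drugs were set against each other at matched times, each at its own inhibitory concentration. With the labels of the array descriptions, no member was called at 8 h: ciclopirox minus crizotinib was 0.14 (adjusted p = 0.846), 0.03 (adjusted p = 0.974) and -0.87 (adjusted p = 0.0753) for the 2 CXCL8 probes and CXCL1 by limma, where 2.85% of all probes were called. Same-numbered arrays of these groups deviated together (r 0.169 to 0.335), and with the number as a block 0 members were called as well. In the labelling of the value table, all 3 were higher at ciclopirox 8 h than at crizotinib 8 h, by 1.31 (SE 0.15, adjusted p = 0.000796), 1.60 (SE 0.17, adjusted p = 0.000577) and 1.05 (SE 0.17, adjusted p = 0.00802), among 4.2% of all probes called. With the replicate number as a block, which did not pair these arrays, the call of ILMN_2184373 was lost (limma adjusted p = 0.0568) and 2 of 3 members were called. CXCL1 thus changed sign between the labellings.

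At 24 h no member was called between the drugs in either labelling. In the labelling of the array descriptions, ciclopirox minus crizotinib was -0.95, -1.30 and -0.87 (limma adjusted p of 0.508 or more), with 0% of all probes called and 1653 at an unadjusted p below 0.05. By the value table, it was 0.24 (95% interval -0.16 to 0.64), -0.19 (-0.66 to 0.27) and 0.36 (-0.10 to 0.83), with 14.8% of all probes called, and CXCL1 alone was called when array E was left out (0.77, adjusted p = 0.0112). These intervals do not show that the drugs act alike on these genes.

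Between the times of a drug, no member was called by the array descriptions, where 0% of all probes were called in either drug (2582 for ciclopirox and 902 for crizotinib at an unadjusted p below 0.05). Ciclopirox at 24 h minus 8 h gave -0.49, -0.49 and 0.58, and crizotinib gave 0.61, 0.84 and 0.58. With the labels of the value table, ciclopirox at 24 h was lower than at 8 h for ILMN_1666733 and CXCL1, with differences of -1.07 (SE 0.19, adjusted p = 0.00433) and -1.13 (SE 0.19, adjusted p = 0.00324) by limma, while ILMN_2184373 gave -0.46 (adjusted p = 0.0825). Thus 2 of 3 members were called, beside 17.1% of all probes. Under crizotinib the CXCL8 probes were higher at 24 h than at 8 h, by 0.61 (SE 0.17, adjusted p = 0.0259) and 0.73 (SE 0.19, adjusted p = 0.023), and CXCL1 gave -0.44 (adjusted p = 0.134). Again 2 of 3 members were called, beside 20.3% of all probes, with 0 called without array C or G and 1 without I. In that labelling CXCL8 under crizotinib was lowest at 8 h and CXCL1 was lowest at 24 h.

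CXCL2 and IL6 could not be followed. CXCL2 had intensities between -6.39 and 12.2 and a detection p between 0.0792 and 0.801 over the 12 arrays. IL6 had intensities between -6.55 and 9.26 and a detection p between 0.104 and 0.812. Neither was above background on any drug or control array, so no level or fold is given. Their transcripts were not detectable with these probes, which does not show that they were absent.

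The order of the arrays tied the probes together without use of any label. Over the 12 arrays, the 2 CXCL8 probes correlated with Pearson r = 0.95 and Spearman rho = 0.98, and r stayed at 0.95 without arrays G and H. CXCL1 correlated with ILMN_2184373 at r = 0.68 (rho 0.66, and r 0.75 without G and H) and with ILMN_1666733 at r = 0.77 (rho 0.67, and r 0.66 without B and J). The arrays share groups, chip and processing, so these values describe the set and carry no test.

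**Figure D4:**
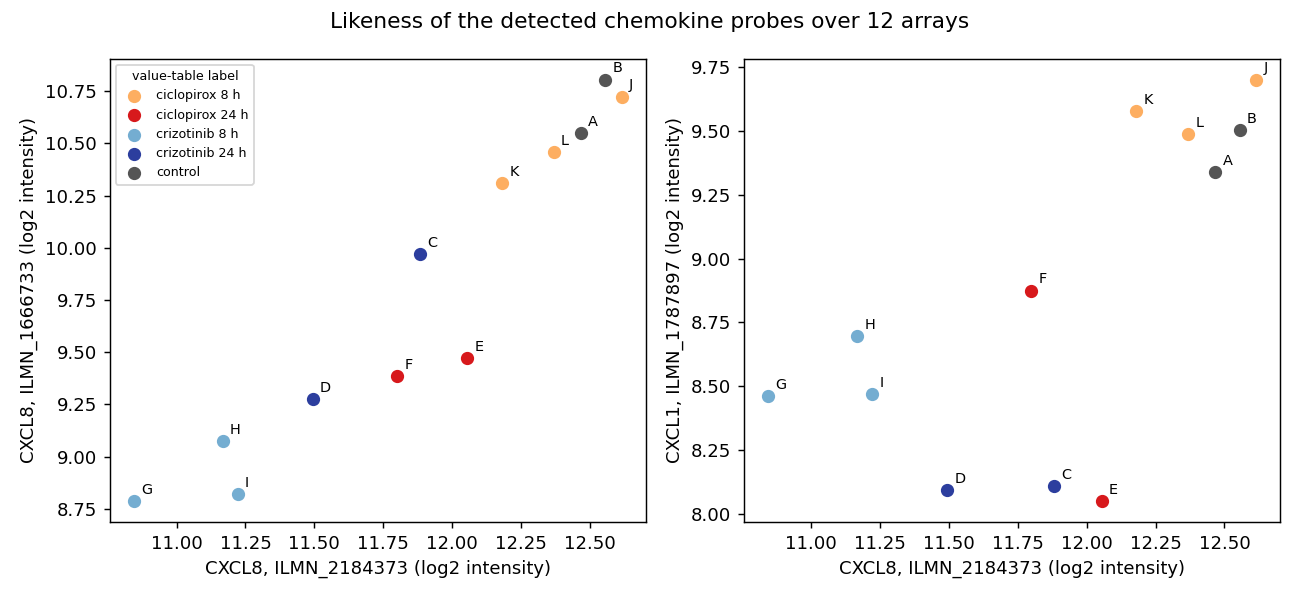
Log2 level of the second CXCL8 probe (left) and of CXCL1 (right) against the first CXCL8 probe on the 12 arrays, coloured by the label of the value table. The CXCL8 probes fall near 1 line (r = 0.95), whereas arrays C, D and E sit low for CXCL1 at middle CXCL8 levels.

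Among 13131 other probes with 1 gene symbol, those most like each member over the 12 arrays were ranked by Pearson r. For ILMN_2184373 they were MARK1 (0.934), ID1 (0.920) and ATP6V0B (0.906). For ILMN_1666733 they were ID1 (0.953), SMIM11 (0.917) and GPATCH4 (0.891), so ID1, an inhibitor of basic helix-loop-helix factors, was near the top for both CXCL8 probes. For CXCL1 they were FAAP20 (0.958), PFKFB3 (0.923), an enzyme that promotes glycolysis, and TOMM5 (0.920).

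Other genes of the pathway came from lists chosen with earlier results of these data known. Of the receptors, IL6ST was detected (log2 8.73 to 9.20) and was not called in any comparison. CXCR1, CXCR2, IL6R and ACKR1, an atypical chemokine receptor, did not pass the detection filter. Of 10 other chemokines with a probe, 3 passed: CCL2, which attracts monocytes, CCL5 and CXCL16. Of 9 other interleukins and cytokines with a probe, IL1A, IL1B, IL24 and LIF passed.

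CCL2 was below control on every drug array. By the array descriptions, it stood at 7.64, 7.44 and 6.70 for ciclopirox 8 h, 6.53 and 7.98 for ciclopirox 24 h, 8.12, 8.16 and 8.13 for crizotinib 8 h, and 8.25 and 8.25 for crizotinib 24 h, against 8.51 and 8.67 in control. No CCL2 comparison was called in that labelling (-1.33 at ciclopirox 8 h, limma adjusted p = 0.0629). In the value table's labelling, CCL2 was lowest at ciclopirox 24 h, at 6.70 and 6.53 against the same controls, a difference of -1.98 (SE 0.12, limma adjusted p = 5.08e-06). It also fell at crizotinib 24 h by 1.05 (SE 0.12, adjusted p = 0.000192) and at crizotinib 8 h by 0.50 (SE 0.11, adjusted p = 0.0479).

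The interleukin-1 genes, which encode the cytokines IL-1α and IL-1β that act upstream of CXCL8 in many cells, ran against the chemokines on some arrays. IL1A stood at 9.56, 9.55 and 9.55 on arrays C, D and E, described as ciclopirox 8 h, against 8.24 and 8.17 in control. Labelled by the array descriptions, IL1A was higher at ciclopirox 8 h than at crizotinib 8 h by 1.77 (limma adjusted p = 0.0431) and IL1B by 1.99 (adjusted p = 0.0373), with no call against control. By the value table, IL1A and IL1B rose at ciclopirox 24 h by 1.32 (adjusted p = 2.42e-05) and 1.27 (adjusted p = 0.000216), and at crizotinib 24 h by 1.35 (adjusted p = 8.84e-06) and 1.53 (adjusted p = 3.59e-05). They fell at crizotinib 8 h, by 0.72 (adjusted p = 0.00302) and 0.84 (adjusted p = 0.00817). CXCL8 was below control in all 3 of those groups, though the call of ILMN_2184373 was not reached at ciclopirox 24 h.

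IL24, a cytokine of the IL-10 family studied as a suppressor of melanoma growth, moved most among these genes. Its levels were 11.98, 11.88 and 9.82 on the arrays described as ciclopirox 8 h, 9.74 and 9.38 for ciclopirox 24 h, 9.43, 9.50 and 7.68 for crizotinib 8 h, and 7.31 and 7.55 for crizotinib 24 h, against 7.94 and 7.74 in control. By the array descriptions, it rose at ciclopirox 8 h by 3.39 (SE 0.63, limma adjusted p = 0.0306). Labelled by the value table, it rose by 4.09 at crizotinib 24 h (SE 0.13, adjusted p = 3.73e-08), 1.94 at ciclopirox 24 h (SE 0.13, adjusted p = 9.82e-06) and 1.60 at crizotinib 8 h (SE 0.12, adjusted p = 0.000173). LIF, a cytokine that signals through IL6ST, rose by 0.89 at ciclopirox 24 h (adjusted p = 0.002) and 0.68 at crizotinib 24 h (adjusted p = 0.00624) in that labelling.

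**Figure D5:**
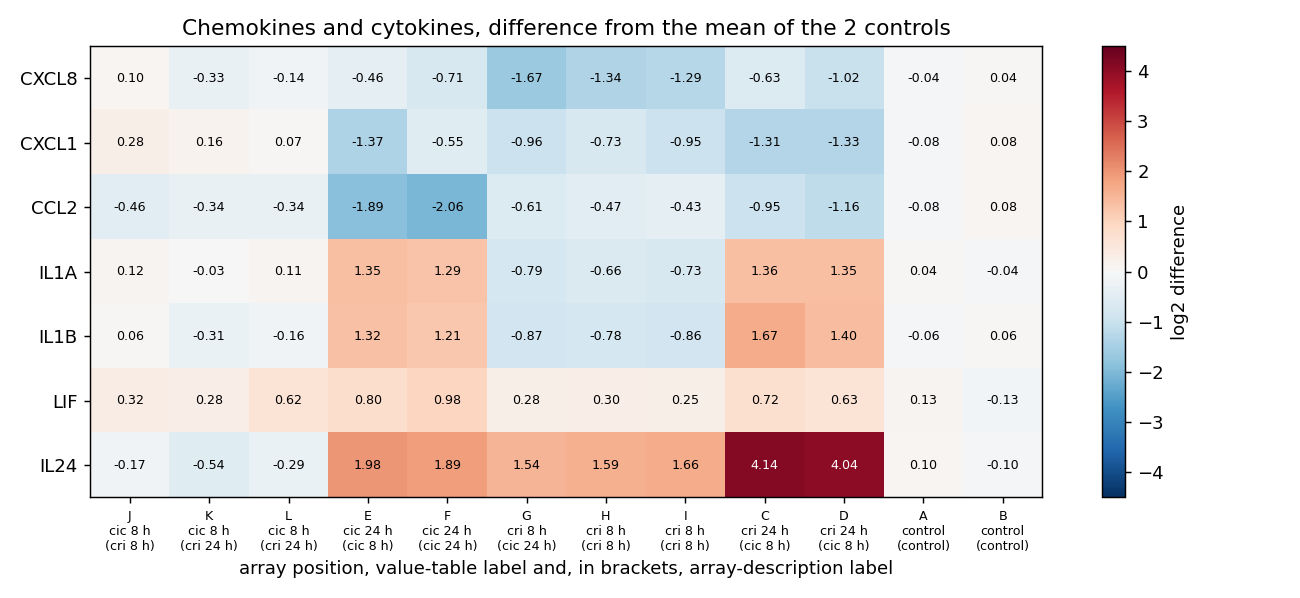
Log2 difference of each array from the mean of the 2 controls for 7 detected chemokine and cytokine genes (CXCL8 by ILMN_2184373), with arrays ordered by the label of the value table and the label of the array description in brackets. CXCL8, CXCL1 and CCL2 are below control on arrays C to I, IL1A and IL1B are above it on C to F and below it on G to I, and IL24 is highest on C and D.

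Of 11 NF-kB subunits and inhibitors that passed the filter, NFKB1, the precursor of p50, was the only one called by the array descriptions. It was higher at ciclopirox 8 h by 0.53 (limma adjusted p = 0.0395), where 2.84% of all probes were called. The median of the 11 was 0.18 there, against -0.01 over all probes. With the value table's labels, 4 of 11 rose at ciclopirox 24 h (median 0.29, all probes -0.01), where 8.09% of all probes were called higher: TNFAIP3, an enzyme that damps NF-kB signalling, by 0.93 (adjusted p = 0.00398), NFKB2 by 0.89 (adjusted p = 0.00196), NFKB1 by 0.43 (adjusted p = 0.0186) and NFKBIZ by 0.41 (adjusted p = 0.0287). At crizotinib 24 h, where 18.9% of all probes were called, NFKB1 and NFKB2 rose and the inhibitor NFKBIB fell by 0.58 (limma adjusted p = 0.0196). At crizotinib 8 h, 1 of the 11 was called higher, where 1.53% of all probes were called. RELA, the main activating subunit, ran from 7.43 to 7.90 over the arrays and was not called in any comparison. Of 6 other NF-kB targets, PTGS2, the inducible cyclooxygenase, and PLAU rose and SOD2 fell at ciclopirox 24 h by the value table. In that comparison 14.6% of all probes were called. At ciclopirox 8 h, 1 of the 6 was called higher, where 0.536% of all probes were called. PTGS2 fell by 0.72 at crizotinib 8 h (limma adjusted p = 0.0245), where 1.53% of all probes were called.

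Of 9 AP-1 and C/EBP factors, none was called by the array descriptions, whereas under the labels of the value table, 6 of 9 rose at ciclopirox 24 h (median 0.78), where 8.09% of all probes were called higher. They were ATF3, a stress-response factor, by 2.50 (adjusted p = 6.03e-07), FOS by 1.63 (adjusted p = 0.000457), CEBPB by 1.30 (adjusted p = 5.93e-05), FOSB by 1.21 (adjusted p = 0.00184), JUNB and FOSL1. At crizotinib 24 h in that labelling ATF3 rose by 1.16 (adjusted p = 4.8e-05) and JUN fell by 0.97 (adjusted p = 0.00565). There 1 of the 9 was called higher and 1 lower, where 18.9% of all probes were called. Of the 7 mRNA decay factors, none was called by the array descriptions. By the value table, 2 of the 7 were called higher at ciclopirox 24 h, where 8.09% of all probes were. At crizotinib 24 h 1 was called higher, where 18.9% of all probes were called in either direction. ZFP36, which binds AU-rich elements, rose at ciclopirox 24 h by 0.70 (limma adjusted p = 0.00156) and at crizotinib 24 h by 0.62 (adjusted p = 0.00215). ZFP36L1 stood at 7.45 and 7.30 on arrays E and F, against 7.02 and 6.70 in control. Of the 7 detected genes of IL-6 signalling, 1 was called higher and 1 lower at crizotinib 8 h by the value table, beside 1.53% of all probes. SOCS3, a STAT3-induced inhibitor, fell there by 0.61 (limma adjusted p = 0.0421). It fell by 0.90 at crizotinib 24 h (adjusted p = 0.00145), the 1 of 7 called there, beside 18.9% of all probes. On those arrays, C and D, SOCS3 stood at 4.79 and 4.83, near background: SOCS1, which did not pass the filter, stood at 4.824 and 4.505. PIM1, a kinase gene induced by STAT3, rose at crizotinib 8 h by 0.65 in that labelling (adjusted p = 0.017), and STAT3 itself was not called in any comparison.

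Of 6 leukocyte markers with a probe, CD14 and CD68 passed the filter, and PTPRC, CD163, LYZ and CSF1R did not. CD68 was higher at crizotinib 24 h by the value table, by 1.05 (limma adjusted p = 0.000509), standing at 9.31 and 9.43 against 8.31 and 8.33 in control. CD14 was not called there, at 5.67 and 5.67 against 5.48 and 5.43. The summed level of the 6 genes was 790.5 to 836.4 against 463.1 to 463.7 in control. Sums of a list include its genes that did not pass the filter, so this sum does not show a rise of the list beyond CD68. With the labels of the array descriptions, the sums were 520.7 to 836.4 at ciclopirox 8 h, with the same controls. Of 6 fibroblast markers with a probe, LUM and PDGFRB passed. By the value table, LUM fell by 0.88 at ciclopirox 24 h (limma adjusted p = 0.000794) and rose by 0.63 at crizotinib 24 h (adjusted p = 0.00384). The fall ended near background: LUM stood at 4.753 and 4.729 on arrays E and F. DCN, which did not pass the filter, stood at 4.994 and 5.005 there. The sums of the list were 167.5 to 167.8 at ciclopirox 24 h and 225.5 to 228.0 at crizotinib 24 h, against 180.6 to 184.9 in control. SOX10 fell by 0.43 at crizotinib 8 h by the value table (limma adjusted p = 0.0462), to 11.00, 11.03 and 11.14 against 11.52 and 11.45 in control. It was also below control at ciclopirox 8 h, at 11.09, 11.19 and 11.11, without a call. No keratinocyte or endothelial marker passed. The part of these markers in the chemokine differences was not tested.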

How the data were processed

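Amplified RNA (from 300 ng) was hybridised to the arrays after biotin labelling, per the labels' protocols. Per the file headers, the deposited scanner table gives each probe's average intensity beside a detection p-value. The deposited value table holds normalized intensity for 38223 probes, and how the authors normalized it is not stated in the labels. The submitters' processing notes name GenomeStudio. Between 27.1% and 30.2% of deposited scanner intensities per array were below 0, as after background subtraction. No per-sample column was left unused (0).

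Intensities were corrected and quantile-normalized with limma's neqc (offset 16). Probes detected (p under 0.01) on 2 or more arrays were kept (18285). limma 3.58.1 in R 4.3.3 fitted 1 mean per group to all 12 arrays (7 residual degrees of freedom), with Benjamini-Hochberg adjustment over all kept probes, at 0.05. The procedure was tested on simulated data. The number of arrays limits the precision.

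Groups came from the sample titles, with arrays tied to samples by the array descriptions. The tie by the value table, and the fit to arrays that both place alike, were added after seeing the data. Members and gene lists were chosen with earlier results of these data known. The deposited tables do not name genes. Of the 5 members, 3 have their gene in the platform annotation (27004 probes with 1 symbol, 4 with several, the rest unnamed here), and ILMN_1666733 and ILMN_1787897 are named by the pairing that defined the set. Where a listed gene had several probes, the one with the highest mean level was taken. The genes named are the members, list genes that were called or moved most, and the 3 probes most like each member. Replicate numbers paired ciclopirox 8 h with crizotinib 8 h by the array descriptions (r over 0.1 in all 3 pairs, seen in the data, not stated in the labels). By the value table these groups did not meet that rule (r -0.10 to 0.02). The other comparisons had 2 pairs each and could not meet it, since it needed 3. Among them by the value table, r was 0.379 for ciclopirox 24 h against crizotinib 24 h. It was 0.14 to 0.17 for ciclopirox 24 h against 8 h. Alternatives were the filter, the offset, median centring, the authors' value table, only the groups compared, array weights, the replicate block and each array left out. Every fit with the replicate block used only the arrays of the groups compared, so it also had fewer residual degrees of freedom.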

Additional observations from a re-analysis of the deposited data

Results flagged for a closer look

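By the value table, 4 differences between 24 h and 8 h of the same drug were called by limma. They are the tests between times already given above, not further ones. Both times share the same controls, so a difference between effects against control is the difference between times. For CXCL8, ILMN_1666733 was lower at 24 h than at 8 h of ciclopirox (difference -1.07, adjusted p = 0.00433) and higher at 24 h than at 8 h of crizotinib by 0.73 (adjusted p = 0.023). The other CXCL8 probe, ILMN_2184373, was higher at 24 h than at 8 h of crizotinib by 0.61 (adjusted p = 0.0259). Both crizotinib calls were lost without the detection filter, with only the groups compared, with the replicate block and without array C or G, with adjusted p up to 0.123 for ILMN_1666733 and 0.0927 for ILMN_2184373 over the processing settings. The ILMN_1666733 call was also lost without array I, and that of ILMN_2184373 with median centring. CXCL1 was lower at 24 h than at 8 h of ciclopirox (difference -1.13, adjusted p = 0.00324), a call lost with the replicate block (adjusted p = 0.0554). By the array descriptions the same differences were -0.49, 0.84, 0.61 and 0.58, and none was called.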

How the results depend on the processing

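The tie of arrays to samples moved the count of members called in 7 of 8 comparisons. Set out as ciclopirox 8 h, ciclopirox 24 h, crizotinib 8 h and crizotinib 24 h against control, 1, 0, 0 and 0 of 3 members were called by the array descriptions, against 0, 2, 2 and 3 by the value table. Between drugs at 8 h the counts were 0 and 3, between drugs at 24 h 0 and 0, and between times 0 and 2 for each drug. CXCL1 changed sign under the value table in 6 comparisons: ciclopirox 8 h against control (0.17), crizotinib 24 h against control (-1.32), ciclopirox 8 h against crizotinib 8 h (1.05), ciclopirox 24 h against 8 h (-1.13) and, called under neither labelling, ciclopirox 24 h against crizotinib 24 h (0.36) and crizotinib 24 h against 8 h (-0.44). The construction of the 2 labellings, which place 7 arrays in different groups, accounts for these.

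By the array descriptions, ciclopirox 8 h against control gave 0 members without the detection filter and 3 with the replicate block, and 0 to 2 when single arrays were left out. An offset of 50 gave 1 member for ciclopirox 8 h against crizotinib 8 h. No array left out changed the 0 of the other comparisons. The arrays with the same group in both tables gave 1 for ciclopirox 24 h.

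By the value table, crizotinib 24 h against 8 h gave 0 members without the filter, 0 with only the groups compared, 0 with the replicate block, 1 with median centring and 0 to 3 with an array left out. Ciclopirox 24 h against control gave 1 with only the groups compared, 1 with the arrays placed alike, 3 with probes detected on all 12 arrays, median centring, an offset of 50 or the replicate block, and 1 to 3 with an array left out. Crizotinib 8 h against control gave 0 with the replicate block, 0 with the arrays placed alike, 3 with probes detected on all 12 arrays, median centring, an offset of 50, only the groups compared or array weights, and 2 to 3 with an array left out, crizotinib 24 h against control gave 1 to 3, and ciclopirox 24 h against crizotinib 24 h gave 0 to 1. Ciclopirox 24 h against 8 h gave 1 with the replicate block and 3 with median centring or an offset of 50, and ciclopirox 8 h against crizotinib 8 h gave 2 with the block. The replicate numbers did not pair the arrays of the 8 h groups (r -0.10 to 0.02). For ciclopirox 24 h against 8 h, r was 0.14 and 0.17 over 2 pairs. Both lay above the 0.1 of the pairing rule, which needed 3 pairs, so pairing was not decided there. Of the members detected, the authors' value table holds ILMN_2184373 alone, so its counts could not pass 1: 0 for ciclopirox 8 h and 24 h against control and between ciclopirox times, and 1 for crizotinib 8 h and 24 h against control, for the drugs at 8 h and between crizotinib times.

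Counts over all probes moved further: ciclopirox 8 h against control by the array descriptions ran from 114 to 3395 over the other settings and from 0 to 1709 with an array left out. Labelled by the value table, crizotinib 24 h against control ran from 2155 to 3863 and from 1622 to 3561. The causes of these shifts were not tested. CXCL2 and IL6 are limited by signal: neither rose above background.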

Other observations

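BNIP3, a mitophagy gene induced in hypoxia that was looked at after its values were seen, had log2 levels of 10.78 to 11.61 on the 5 arrays described as ciclopirox and of 10.89 to 12.12 on the other 7. Under the value table its levels were 11.51 to 12.12 on the 5 ciclopirox arrays and 10.78 to 11.22 on the other 7.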
